A study of Mus musculus with 18 samples.

Results

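Hearts taken 4 weeks after AAC, the operation behind the pressure overload studied here, were compared with hearts taken before it, across every probe set that the platform annotation pairs with 1 gene symbol. The comparison used 6 of the 9 hearts and 35041 of the 45265 probe sets of the Affymetrix mouse chips 430A and 430B, which cover 18193 genes. All mice were males of the Tet-myrAkt1/αMHC-tTA genotype: they carried a transgene for an activated form of the kinase Akt1 under a tetracycline-regulated promoter, and a driver that is active in heart muscle cells. The 3 hearts before AAC came from mice of 8 weeks, and the 3 hearts taken 4 weeks after AAC came from mice of 12 weeks. No unoperated mice of 12 weeks are among the samples, so that the operation and 4 weeks of growth cannot be told apart. The labels name the groups with no Akt activation at either time, and do not say whether a sample is 1 animal or pooled RNA, or whether the atria were included. In its description, 4-week replicate 3 is numbered 1, but 4-week replicates 1 and 3 were the least alike of the 3 pairs of that group on both chips (SD of their log2 difference 0.492 on chip 430A and 0.726 on chip 430B), so they were kept as separate samples. The remaining 3 hearts, taken 6 weeks after AAC with Akt on, entered the fit to estimate the spread between hearts. They also entered the mean signal by which probe sets were filtered and 1 was chosen for each gene. Their labels give an age of 12 weeks, and 2 weeks of Akt in the description against 3 in the title.

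A heart that pumps against a raised pressure enlarges its muscle cells. In rodents this growth is known for the return of genes of the fetal heart, such as skeletal α-actin and the natriuretic peptides, for a shift of fuel use from fatty acids towards glucose, and for fibrosis. The growing cell also has to fold, import and turn over more protein, which is the work of chaperones in the cytosol and the endoplasmic reticulum (ER), of the mitochondrial import machinery and of the proteasome.

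The brighter 60% of the probe sets of each chip were tested, 21850 in all, which stand for 12834 genes. Each gene is described by 1 probe set, the brightest on chip 430A or, failing that, on chip 430B. Values are log2 of the deposited signal, given in the order of replicates 1, 2 and 3, and a change is the 4-week mean minus the mean before AAC. A gene is said to have risen or fallen where limma's adjusted p, taken over all probe sets tested, was under 0.05. By this measure 1160 probe sets (5.31%) changed, 765 higher (3.5%) and 395 lower (1.81%). Counted once per gene, 622 genes (4.85%) changed, 333 higher (2.59%) and 289 lower (2.25%) at 4 weeks. The 3 hearts of one group lay wholly above those of the other in 3958 genes (30.8%). Called genes were picked for a difference between the groups, so a lack of overlap in them is a description and no further support. Genes on chip 430A were called more often (6.73%) than those on chip 430B (1.44%).

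Leaving out 1 of the 6 hearts left between 54 and 338 of the 622 genes below the threshold. Without before-AAC replicates 1, 2 and 3 the numbers kept were 151, 84 and 73. Without 4-week replicates 1, 2 and 3 they were 130, 54 and 338. The direction held in all 622 genes in each of these fits. With each of the 9 hearts left out in turn, 34 genes (0.265%) stayed below the threshold throughout, 23 of them higher (0.179%) and 11 lower (0.0857%). For other genes, the highest adjusted p reached with a heart left out is given beside the result.

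RNA quality differed between the groups. The log2 ratio of 3' to 5' signal of the control transcripts, which is larger where RNA is more broken down, was 0.57, 0.96 and 1.03 for β-actin on chip 430A before AAC and 0.27, 0.18 and 0.28 at 4 weeks. The groups did not overlap for β-actin and Gapdh on chip 430A or for Gapdh on chip 430B (exact permutation test, two-sided, p = 0.1, the smallest that 3 hearts against 3 allow). With the mean ratio of each heart as a covariate, 3 probe sets stayed below the threshold, those of the class I genes H2-D1 and H2-K1. The direction held in 616 of the 622 genes in that fit. Since the mean ratio of every heart before AAC lay above that of every 4-week heart, the ratio and the time after AAC cannot be told apart in the calls that follow. The bright end of chip 430A also shifted: in the tenth of genes with the highest signal the median change was -0.127, with 67 genes lower and 31 higher, and after quantile scaling that median was -0.039.

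**Figure D1:**
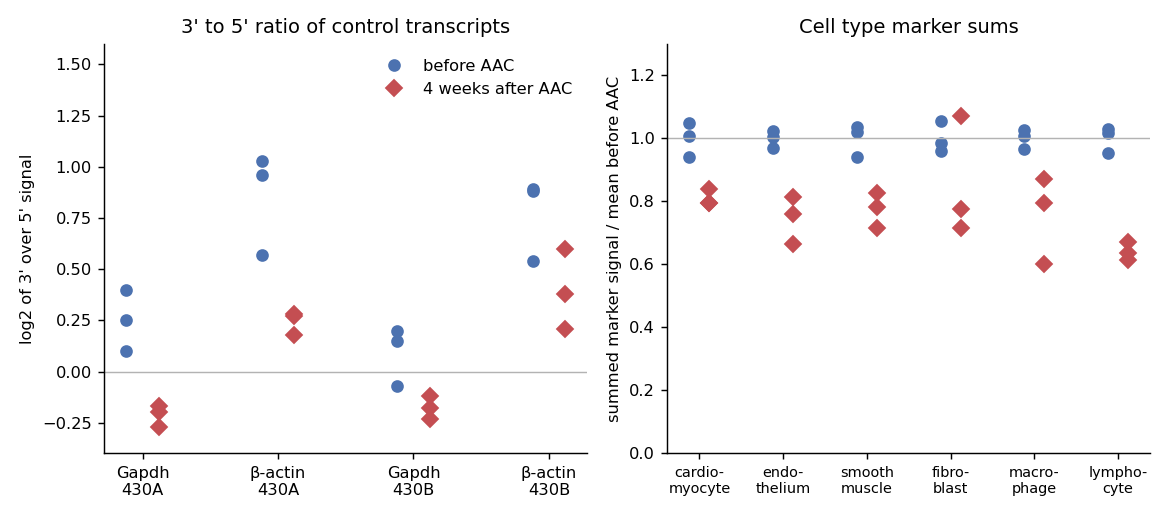
Left, log2 of the 3' over the 5' signal of the Gapdh and β-actin control probe sets on each chip, 1 point per heart (circles before AAC, diamonds 4 weeks after). Right, the summed signal of marker genes of 6 cell types in each heart, divided by the mean of the 3 hearts before AAC. The 4-week ratios lie below those before AAC for 3 of the 4 controls, and the 4-week sums lie below those before AAC for all the types shown except fibroblasts. For macrophages and for smooth muscle and pericytes, the median log2 deviation over the tested markers in each heart overlapped between the groups.

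The genes whose calls survived the loss of any heart included H2-D1, Hspa4, Dnaja2 and Clpx among the rises and Hyou1, Ndufa13 and Atp5d among the falls. Hspa4, a chaperone that serves as nucleotide exchange factor for the Hsp70 proteins, read 8.92, 9.13 and 9.16 before AAC and 10.23, 10.40 and 10.29 at 4 weeks. All 4-week hearts lay above those before AAC by more than the range within either group, and the change was 1.24 ± 0.15 (SE, adjusted p = 0.00298). Dnaja2, a cytosolic J-domain co-chaperone, rose from 9.78, 9.72 and 9.64 to 10.68, 10.58 and 10.77, a change of 0.96 ± 0.15 (adjusted p = 0.0103). Clpx, the unfolding subunit of the mitochondrial ClpXP protease, rose from 8.55, 8.95 and 8.71 to 9.93, 9.92 and 10.11, although the second probe set of Clpx fell (-0.72). Tomm70a, a receptor of the mitochondrial outer membrane that takes in precursor proteins, rose by 0.83 ± 0.13 (adjusted p = 0.0103).

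Other rises were kept without any one heart as well. Tmed7, a cargo receptor of vesicles leaving the ER, rose by 1.11 ± 0.15 (adjusted p = 0.00662), and 2 of its 4 probe sets were called higher. Ergic2, a protein of the compartment between the ER and the Golgi, read 7.52, 7.61 and 7.13 before AAC and 8.89, 9.16 and 8.78 at 4 weeks, while another of its 3 probe sets fell (-1.11). Scoc, a coiled-coil protein of the Golgi, rose by 1.55 ± 0.22 (adjusted p = 0.00736). The repair enzyme Pcmt1, which restores damaged aspartyl residues in proteins, rose by 1.50 ± 0.20 (adjusted p = 0.00527), with 2 of 4 probe sets called higher. Gspt1, the translation termination factor eRF3a, rose by 1.16 ± 0.16 (adjusted p = 0.00662), and Chac2, an enzyme that degrades glutathione, rose by 1.68 ± 0.24 (adjusted p = 0.0069). Of membrane proteins, the potassium channel Kcnj14 rose by 1.17 ± 0.15 (adjusted p = 0.00418), the metalloprotease Adam9 by 1.14 ± 0.18 (adjusted p = 0.0103), and the dystrophin partner Dtna by 0.95 ± 0.14 (adjusted p = 0.00801), although another probe set of Dtna stood at -0.71.

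Among the falls kept without any one heart, U2af2, the large subunit of the splicing factor U2AF, went from 12.04, 11.32 and 11.73 to 9.85, 9.78 and 10.28. The groups stood more than 1 log2 unit apart, and the change was -1.73 ± 0.26 (adjusted p = 0.00957). Rbmxl2, an RNA-binding protein best known from the testis, fell by 2.38 ± 0.34 (adjusted p = 0.00736) and read 5.38, 5.04 and 4.82 at 4 weeks, near the dim end of its chip. Wdr5, a scaffold of histone H3 lysine methyltransferases, fell by 0.91 ± 0.14 (adjusted p = 0.00845), while its other probe set stood at 0.61.

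**Figure D2:**
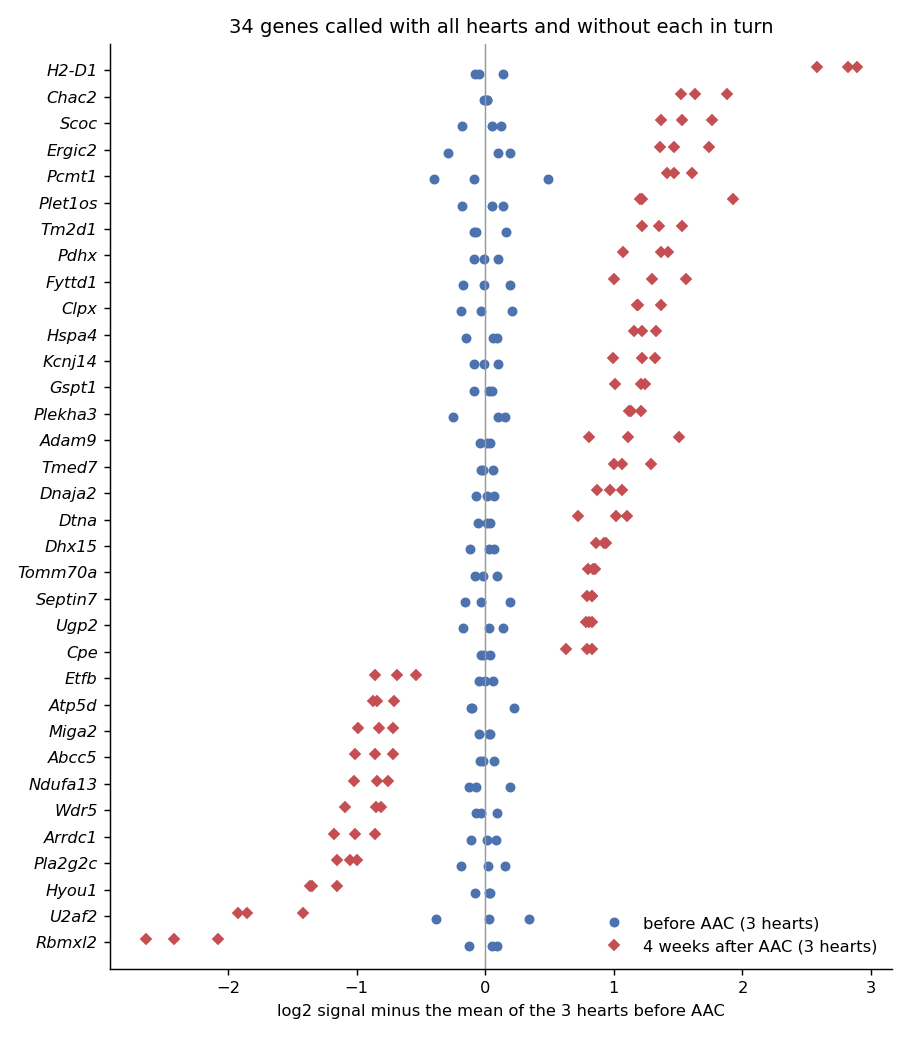
Log2 signal of each heart minus the mean of the 3 hearts before AAC, for the 34 genes called in the fit with 9 hearts and without each of them in turn (circles before AAC, diamonds 4 weeks after AAC, 3 hearts each). The genes were picked by this rule, so the separation of the groups is a description. H2-D1 lies at the top with a change of 2.76 and Rbmxl2 at the bottom with -2.38.

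H2-D1, a class I molecule that presents peptides on the cell surface, gave the smallest p of the comparison. Its probe set read 9.65, 9.46 and 9.43 before AAC and 12.09, 12.33 and 12.40 at 4 weeks, a change of 2.76 ± 0.14 (adjusted p = 2.35e-06). The probe sets of this gene disagreed: 4 of 6 were called higher, up to 4.10, and 1 was called lower, at -0.71. H2-K1, another classical class I gene, also had probe sets that disagreed. Of its 4 probe sets, 1 was called higher at 3.57, while its representative stood at -0.41 (adjusted p = 0.178). The mean of all 4 stood at 0.60 (adjusted p = 0.0323). Class I genes are nearly identical in sequence and vary between mouse strains, so a probe set can read more than 1 of them, and the gene behind each value is uncertain. Of the 18 genes tested for class I and antigen processing, only H2-D1 was called higher and only Calr lower (11.1%, against 4.85% of all genes tested). The median change was -0.269 (-0.159 without before-AAC replicate 1 and -0.167 without 4-week replicate 1) against -0.042 over all genes tested. The interferon list gave 1 call in 36 (2.78%). It was Iigp1, a GTPase induced by interferon, which fell from 10.68, 10.96 and 11.06 to 9.79, 10.07 and 10.41 (-0.81 ± 0.17, adjusted p = 0.0259, up to 0.0998 with a heart left out).

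Of 38 genes of ER folding and stress, 7 fell, and 29 of the 38 changes were below 0 (median -0.206). Of 39 heat shock proteins and co-chaperones, 5 rose and 1 fell, and 24 changes were above 0 (median 0.169). Over all genes tested the median change was -0.042, 2.59% were higher and 2.25% lower. After quantile scaling the medians were -0.251 and 0.112. With a heart left out the ER median ran from -0.258 to -0.194, while the heat shock median dropped to 0.047 without before-AAC replicate 2 and to 0.057 without 4-week replicate 3. The difference between the lists was not tested.

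Hyou1, the ER chaperone induced by low oxygen, read 9.31, 9.32 and 9.20 before AAC and 8.13, 7.93 and 7.92 at 4 weeks. The change of -1.28 ± 0.17 (adjusted p = 0.00636) held without any heart. Creld2, a protein disulphide isomerase of the ER stress response, read 9.04, 9.04 and 9.07, then 8.30, 8.19 and 8.20 (-0.82 ± 0.15, adjusted p = 0.0169). The groups of both genes were separated by far more than the spread within them. Manf, a secreted factor that is released under ER stress, fell from 9.94, 10.12 and 10.16 to 9.38, 9.29 and 9.47 (-0.69 ± 0.14, adjusted p = 0.0212). Sdf2l1, which works with the ER chaperone BiP, fell by 0.86 ± 0.18 (adjusted p = 0.0229). Calr, the calcium-binding lectin chaperone calreticulin, fell from 12.50, 12.61 and 12.50 to 11.77, 12.01 and 12.08 (adjusted p = 0.0186), with 2 of 3 probe sets called lower. Hsp90b1, the HSP90 of the ER, fell by 0.64 ± 0.15 (adjusted p = 0.0365). The seventh call was Phgdh, the first enzyme of serine synthesis and no chaperone (-0.69 ± 0.14, adjusted p = 0.0242). Hspa5, which encodes BiP itself, stood at -0.54 ± 0.16 (adjusted p = 0.0664), with all 4-week hearts below those before AAC. Serpinh1, the collagen-specific chaperone of the ER that stood outside this list, fell by 0.78 ± 0.14 (adjusted p = 0.0172) with both of its probe sets called lower.

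The calls of these genes other than Hyou1 were lost when some hearts were left out. Creld2 lost its call without 4-week replicate 2 or before-AAC replicate 2 or 3 (adjusted p up to 0.0707). Manf and Calr lost theirs without 4-week replicate 1 or 2 or before-AAC replicate 2 or 3 (up to 0.0832 and 0.073), and Serpinh1 without 4-week replicate 1 or 2 or before-AAC replicate 1 or 3 (up to 0.0701). Sdf2l1 and Hsp90b1 lost theirs without any 1 of the hearts before AAC or 4-week replicates 1 and 2 (up to 0.0848 and 0.112), and Phgdh without any of the hearts before AAC or 4-week replicates 2 and 3 (up to 0.091).

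The ER stress response element (ERSE) is the binding site through which ER stress is known to switch on chaperone genes, so the promoters of these genes are shown. The letters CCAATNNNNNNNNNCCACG were searched on both strands in the 250 bases before each gene start in RefSeq (build GRCm38.p6). They occurred in 37 of 32851 promoters (0.113%), which belong to 35 of 27025 genes. A match was held by 8 of the 34 tested ER genes that RefSeq gave a promoter for, and the 33 heat shock genes held none. Of the 8 genes, Creld2, Calr and Hsp90b1 fell, and the other 5 were not called, with changes from -0.54 (Hspa5) to 0.10 (Canx, calnexin). The 250 bases of the 3 genes that fell are given 5′ to 3′ on the gene's own strand, with the matches in capitals.
Creld2 (chr15:88819396-88819645, plus strand): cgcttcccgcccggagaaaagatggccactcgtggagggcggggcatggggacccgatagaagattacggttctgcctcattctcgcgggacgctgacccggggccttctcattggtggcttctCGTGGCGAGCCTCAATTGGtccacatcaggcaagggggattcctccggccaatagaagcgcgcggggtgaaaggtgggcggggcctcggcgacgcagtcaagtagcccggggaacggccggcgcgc
Calr (chr8:84846932-84847181, minus strand): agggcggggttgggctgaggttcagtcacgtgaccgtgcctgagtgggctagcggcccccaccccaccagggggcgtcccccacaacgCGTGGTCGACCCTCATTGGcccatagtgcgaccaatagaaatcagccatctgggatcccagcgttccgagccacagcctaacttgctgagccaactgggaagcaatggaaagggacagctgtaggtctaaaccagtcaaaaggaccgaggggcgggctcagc
Hsp90b1 (chr10:86705445-86705694, minus strand): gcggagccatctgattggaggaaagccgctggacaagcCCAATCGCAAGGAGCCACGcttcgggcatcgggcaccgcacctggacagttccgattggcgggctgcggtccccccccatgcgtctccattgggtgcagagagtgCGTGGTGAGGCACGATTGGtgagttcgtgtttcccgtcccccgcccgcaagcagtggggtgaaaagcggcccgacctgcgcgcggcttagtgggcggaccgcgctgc
The match began 126 bases before the start of Creld2 and 162 before that of Calr, and Hsp90b1 held 2, at 212 and 107 bases. A match describes these letters and shows no binding.

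Of the cytosolic chaperones, Dnaja4, a J-domain co-chaperone, read 10.48, 10.34 and 10.09 before AAC and 11.46, 11.66 and 10.86 at 4 weeks (1.02 ± 0.22, adjusted p = 0.0249), and all 3 of its probe sets were called higher (0.93 to 1.07). St13, the Hsp70-interacting protein Hip, rose from 9.48, 9.26 and 9.45 to 10.47, 10.20 and 9.83 (adjusted p = 0.0311), and Hspa4l, a relative of Hspa4, rose by 0.92 ± 0.21 (adjusted p = 0.0314). These 3 calls were lost without any 1 of the hearts before AAC or 4-week replicates 1 and 2, with adjusted p up to 0.0963 for Dnaja4, 0.104 for St13 and 0.114 for Hspa4l. In Dnaja4, St13 and Hspa4l alike, the groups did not overlap, as in 30.8% of all genes tested. Dnajb6, another J-domain protein, fell by 0.61 ± 0.13 (adjusted p = 0.0268, up to 0.0982 without the same hearts). Cryab, the small heat shock protein αB-crystallin, stood above its level before AAC in all 4-week hearts (0.44 ± 0.13, adjusted p = 0.0775), and quantile scaling brought it below the threshold at 0.70 (adjusted p = 0.00831).

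**Figure D3:**
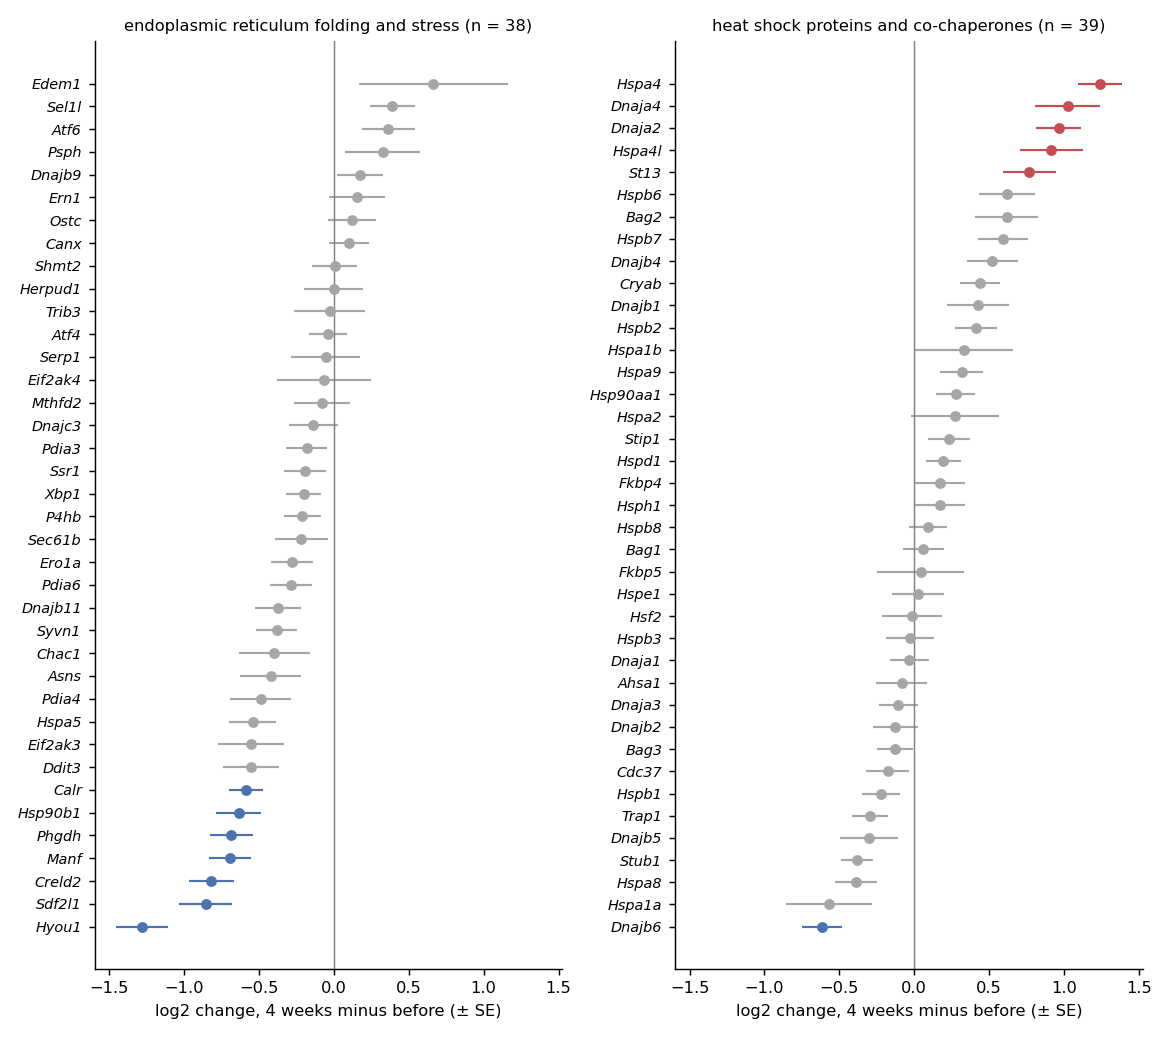
Log2 change from before AAC to 4 weeks (3 hearts each, bars are the SE of the limma fit) of each tested member of the ER folding and stress list (left) and of the heat shock and co-chaperone list (right). Coloured points have an adjusted p under 0.05, 7 lower on the left, and 5 higher and 1 lower on the right.

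Tomm20, Pmpcb and Immt belong to no list and were chosen after their values were seen, so they say nothing of mitochondrial import as a group. Tomm20, an import receptor of the outer mitochondrial membrane, read 10.80, 11.59 and 11.27 before AAC and 11.83, 12.24 and 12.13 at 4 weeks. It rose by 0.85 ± 0.20 (adjusted p = 0.0337), and 4 of its 6 probe sets were called higher. Pmpcb, the catalytic subunit of the peptidase that removes import signals, rose from 11.77, 11.74 and 11.72 to 12.27, 12.57 and 12.28 (adjusted p = 0.0254), with both probe sets called. Immt, which shapes the cristae, rose by 0.65 ± 0.17 (adjusted p = 0.0459), with 2 of 3 probe sets called. With a heart left out the adjusted p reached 0.118 for Tomm20 (call lost without before-AAC replicate 1 or 3 or any 4-week heart), 0.103 for Pmpcb (any heart before AAC, 4-week replicate 1 or 2) and 0.15 for Immt (before-AAC replicate 2 or 3 or any 4-week heart). Of 75 mitochondrial ribosomal proteins 5 rose and 1 fell (8% called, against 4.85% of all genes tested). Their median of 0.112 went to 0.005 without 4-week replicate 3, to 0.050 without before-AAC replicate 2 and to 0.002 with the 3' to 5' ratio as a covariate. Mrps10 rose by 1.03 ± 0.18 (adjusted p = 0.0152, up to 0.0594 without 4-week replicate 2 or before-AAC replicate 3) and Mrps18a by 0.84 ± 0.15 (adjusted p = 0.0166, up to 0.0735 without 4-week replicate 2 or before-AAC replicate 2 or 3). Mrpl20 fell from 11.61, 10.83 and 10.84 to 9.93, 9.70 and 10.03 (adjusted p = 0.0122, 0.0565 without 4-week replicate 2).

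Of 36 genes of the TCA cycle and pyruvate entry 5 rose and 5 fell (median -0.044, and 0.096 without 4-week replicate 1), against 7 higher and 1 lower after quantile scaling (median 0.097). The share called was 27.8%, against 4.85% of all genes tested. Pdhx, the subunit that tethers the E3 enzyme of the pyruvate dehydrogenase complex, read 10.01, 9.82 and 9.90 before AAC and 11.33, 11.28 and 10.98 at 4 weeks. The change of 1.29 ± 0.16 (adjusted p = 0.00463) held without any heart. Dlat, the E2 core enzyme, went from 10.80, 11.19 and 11.08 to 11.57, 12.04 and 11.82 (0.79 ± 0.17, adjusted p = 0.0264). Dld, the E3 enzyme, went from 10.35, 10.07 and 10.29 to 10.89, 11.07 and 11.46 (0.90 ± 0.21, adjusted p = 0.0337). All 4-week hearts lay above all hearts before AAC in these 3 subunits, as in 13% of all genes tested. Pdk1, a kinase that inhibits the complex, rose as well (0.95 ± 0.20, adjusted p = 0.0243), and Pdp2, a phosphatase that activates it, fell (-0.73 ± 0.19, adjusted p = 0.0476). Suclg2, a subunit of succinyl-CoA ligase, was the fifth to rise (0.80 ± 0.20, adjusted p = 0.0449). Leaving out a heart took the adjusted p to 0.103 for Dlat (any heart but 4-week replicate 1), 0.113 for Dld, 0.132 for Pdp2 and 0.135 for Suclg2 (any of the 6 hearts; Pdp2 also without Akt-on replicate 3), and 0.0933 for Pdk1 (before-AAC replicate 2 or 3, 4-week replicate 2 or 3).

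The TCA cycle and aspartate enzymes that fell are among the brightest genes of the chip, and their size depended on the scaling. Cs, citrate synthase, fell by 0.59 ± 0.14 (adjusted p = 0.0373), and stood at -0.43 (adjusted p = 0.0773) after quantile scaling. Sdhb, the iron-sulphur subunit of succinate dehydrogenase, fell by 0.61 ± 0.14 (adjusted p = 0.0321; -0.26 and 0.227 after quantile scaling). Mdh2, malate dehydrogenase, fell by 0.37 ± 0.09 (adjusted p = 0.0367; -0.07 and 0.665). Got2, the mitochondrial aspartate aminotransferase, fell by 0.61 ± 0.12 (adjusted p = 0.0196; -0.31 and 0.146), although its 3 probe sets ranged from -1.44 to 0.82 and the other two were not called. Quantile scaling thus ended these 4 calls and that of Suclg2 (adjusted p = 0.0639), and kept those of Pdhx, Dlat, Dld, Pdk1 and Pdp2. Without any 1 heart before AAC or 4-week replicate 1 or 2, the 4 enzymes also lost their calls (adjusted p up to 0.143 for Cs, 0.1 for Sdhb, 0.113 for Mdh2, also without 4-week replicate 3, and 0.0829 for Got2).

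Of 34 complex I genes 7 fell (median -0.264), and of 33 genes of complexes II, III and IV 10 fell (median -0.297). Of 30 genes of ATP synthase and the nucleotide carriers 6 fell (median -0.242). Over all genes tested 2.25% fell, and the median was -0.042. After quantile scaling 2, 1 and 2 genes of these lists were called lower, while 1 of complex I and 2 of complexes II, III and IV were called higher, and the medians were -0.097, -0.081 and 0.002. The complex I median was -0.144 without 4-week replicate 1. Ndufa13, an accessory subunit of complex I, read 14.21, 14.27 and 14.53 before AAC and 13.32, 13.50 and 13.58 at 4 weeks (-0.87 ± 0.13, adjusted p = 0.00801). Atp5d, the δ subunit of ATP synthase, read 14.94, 14.61 and 14.62, then 13.85, 13.88 and 14.01 (-0.81 ± 0.11, adjusted p = 0.00636). Neither gene showed overlap between the groups, both kept their calls without any heart, and both remained below the threshold after quantile scaling (-0.64 and 0.0163 for Ndufa13, -0.48 and 0.0137 for Atp5d). Cox17, a copper chaperone for cytochrome c oxidase, fell by 0.81 ± 0.14 (adjusted p = 0.0144; 0.0173 after quantile scaling), with a call lost without 4-week replicate 2 or before-AAC replicate 2 or 3 (up to 0.0641). Ndufv3, a small complex I subunit, fell by 0.65 ± 0.12 (adjusted p = 0.0153; 0.0385 after quantile scaling; up to 0.072 without 4-week replicate 1 or 2 or before-AAC replicate 1 or 3). The falls of Ndufb11, Cox6a2, Uqcr11 and Atp5g3, subunits of complexes I, IV and III and of ATP synthase, were between 0.51 and 0.60 in size, and quantile scaling ended all 4 calls (adjusted p = 0.0847, 0.266, 0.12 and 0.2). Without single hearts the adjusted p rose to at most 0.0655 for Ndufb11, 0.0712 for Cox6a2, 0.0745 for Uqcr11 and 0.0727 for Atp5g3. Each of the 4 calls ended without before-AAC replicate 1, without before-AAC replicate 2 and without 4-week replicate 2, and none ended without 4-week replicate 3.

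**Figure D4:**
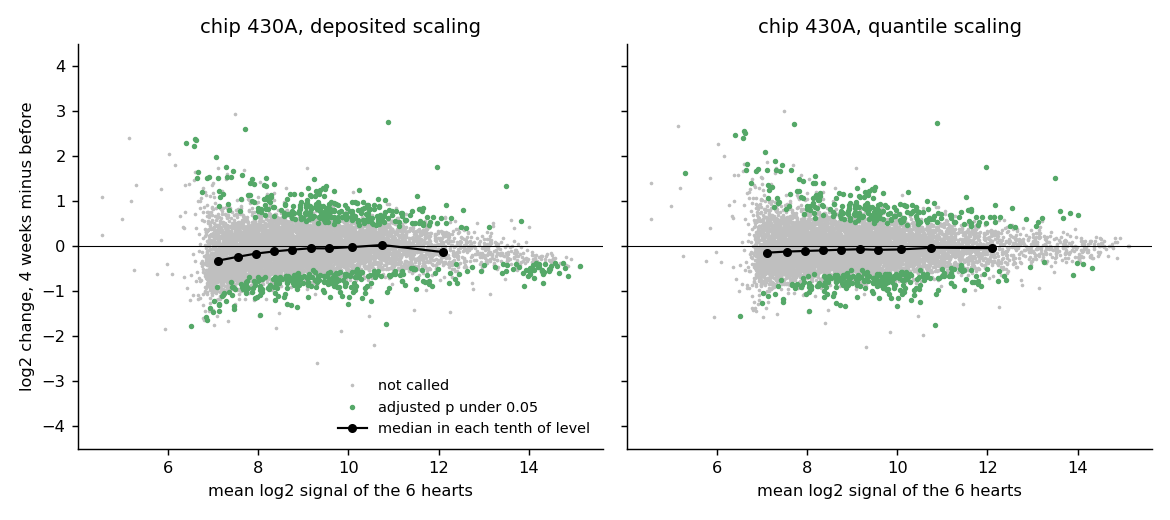
Log2 change at 4 weeks against the mean log2 signal of the 6 hearts, for each gene of chip 430A, with the deposited scaling (left) and after quantile scaling (right). Green points have an adjusted p under 0.05, and the black line joins the medians of the 10 equal classes of level. On the left the brightest class has a median of -0.127, and on the right -0.039.

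Fatty acid uptake and oxidation gave 4 falls and 1 rise in 46 genes (median -0.154, and -0.064 without 4-week replicate 1). The share called was 10.9%, against 4.85% of all genes tested. Etfb, which passes electrons from fatty acid oxidation to the respiratory chain, read 14.42, 14.53 and 14.47 before AAC and 13.61, 13.78 and 13.93 at 4 weeks. The groups were well apart, and the fall of 0.70 ± 0.11 (adjusted p = 0.00957) held without any heart and after quantile scaling (-0.40, adjusted p = 0.0327). Ucp3, a mitochondrial carrier linked to fatty acid use, fell from 9.08, 9.21 and 9.03 to 8.09, 8.42 and 8.03 (-0.92 ± 0.19, adjusted p = 0.0229), and lost its call without any 1 of the 6 hearts (up to 0.0815). Hadh and Ech1, enzymes of β-oxidation, fell by 0.59 ± 0.12 and 0.58 ± 0.12 (adjusted p = 0.0234 and 0.0254), and quantile scaling ended both calls (adjusted p = 0.202 and 0.129), as did the loss of single hearts (up to 0.0902 and 0.0892). Acad9, an acyl-CoA dehydrogenase that also assembles complex I, was the 1 rise, from 6.57, 5.43 and 7.20 to 9.32, 9.07 and 8.66 (adjusted p = 0.0177), but 2 further probe sets of the gene were not called and the smallest change was 0.07. The call of Acad9 was lost without 4-week replicate 1 or 2 or before-AAC replicate 2 (up to 0.0696). None of 36 regulators of metabolic transcription was called by limma (11 at an unadjusted p under 0.05), and none of 17 clock genes (6 unadjusted). Over all genes tested, 22.5% had an unadjusted limma p under 0.05.

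Of 28 genes of glycolysis and glycogen, 3 rose, all of them in glycogen metabolism, and 2 fell (17.9% called, against 4.85% of all genes tested). Ugp2, which makes the UDP-glucose that glycogen is built from, read 12.27, 11.96 and 12.16 before AAC and 12.94, 12.91 and 12.96 at 4 weeks. The 4-week hearts lay within 0.05 of each other and above all hearts before AAC, and the rise of 0.81 ± 0.13 (adjusted p = 0.0118) held without any heart. In all, 4 of its 5 probe sets were called higher. Gyg, the protein that primes glycogen, rose by 0.88 ± 0.21 (adjusted p = 0.0353), and Phka1, a regulatory subunit of phosphorylase kinase, by 0.82 ± 0.21 (adjusted p = 0.0477). Both lost their calls after quantile scaling (adjusted p = 0.0513 and 0.0606) and without any 1 of the 6 hearts (up to 0.108 and 0.157; Phka1 also without Akt-on replicate 2). Ldhb, the heart form of lactate dehydrogenase, fell by 0.55 ± 0.12 (adjusted p = 0.0244) with 3 of 4 probe sets called lower, and stood at -0.22 (adjusted p = 0.249) after quantile scaling. Aldoa, aldolase A, fell by 0.38 ± 0.10 (adjusted p = 0.0439) with the deposited scaling and turned to 0.05 (adjusted p = 0.805) with quantile scaling. Without single hearts the adjusted p of Ldhb and Aldoa reached 0.0956 and 0.162.

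Of 20 stress and fetal cardiac genes 3 rose and 1 fell (20% called, against 4.85% of all genes tested). Acta1, skeletal α-actin, read 12.29, 13.41 and 12.80 before AAC and 14.42, 14.17 and 13.91 at 4 weeks. The groups did not overlap, the change was 1.33 ± 0.24 (adjusted p = 0.0152), and the call was lost without 4-week replicate 1 or 2 or before-AAC replicate 3 (up to 0.0641). Myl1, an alkali light chain of skeletal and fetal muscle, read 10.16, 12.01 and 11.12 before AAC and 12.85 ± 0.19 (SD, n = 3) at 4 weeks, with no overlap (adjusted p = 0.0234, up to 0.0761 without before-AAC replicate 3 or any 4-week heart). In Acta1 and Myl1 the hearts before AAC differed by more than 1 log2 unit among themselves, with replicate 1 lowest. Ankrd1, a stretch-responsive protein of the sarcomere, went from 13.49, 13.60 and 13.54 to 14.24, 13.98 and 14.07 (0.55 ± 0.13, adjusted p = 0.0347), and lost its call without any 1 of the 6 hearts (up to 0.108). Nes, the intermediate filament nestin, fell by 0.82 ± 0.15 (adjusted p = 0.0169, up to 0.0733 without 4-week replicate 1 or 2 or before-AAC replicate 1 or 3).

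The best known markers of load were not called. Nppb, B-type natriuretic peptide, read 12.97, 13.14 and 12.93 before AAC and 13.10, 13.24 and 13.56 at 4 weeks (0.29 ± 0.21, adjusted p = 0.452). Nppa, atrial natriuretic peptide, read 11.86, 15.10 and 14.55, then 14.67, 11.65 and 13.05, so that it spanned over 3 log2 units within each group and so did the atrial light chain Myl7 (8.18, 13.99 and 12.84, then 13.84, 9.51 and 5.09). Both atrial transcripts differed more within the groups than between them. Myh7, the β myosin heavy chain, stood at -0.24 ± 0.37 (adjusted p = 0.755). Myh6, the α myosin heavy chain, stood at -0.16 ± 0.10 (adjusted p = 0.41; 0.18 after quantile scaling), while its second probe set was called higher at 1.15. Actc1, cardiac α-actin, stood at -0.26 ± 0.11 (adjusted p = 0.183) and at 0.07 after quantile scaling.

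Acta1 and Ankrd1 are known targets of the factors that bind the M-CAT element, and their promoters are given with that motif in capitals. The letters CATTCCT were searched on both strands in the 250 bases before each gene start, and occurred in 1481 of 32851 promoters (4.51%). They occurred in 4 of 18 tested stress and fetal genes with a promoter there (Acta1, Ankrd1, Nppb and Acta2) and in 6 of 27 sarcomere and Z-disc genes.
Acta1 (chr8:123894776-123895025, minus strand): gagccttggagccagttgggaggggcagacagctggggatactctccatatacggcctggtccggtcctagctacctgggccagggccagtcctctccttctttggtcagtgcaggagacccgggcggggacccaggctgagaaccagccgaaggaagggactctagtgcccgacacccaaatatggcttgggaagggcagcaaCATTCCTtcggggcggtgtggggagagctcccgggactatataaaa
Ankrd1 (chr19:36119845-36120094, minus strand): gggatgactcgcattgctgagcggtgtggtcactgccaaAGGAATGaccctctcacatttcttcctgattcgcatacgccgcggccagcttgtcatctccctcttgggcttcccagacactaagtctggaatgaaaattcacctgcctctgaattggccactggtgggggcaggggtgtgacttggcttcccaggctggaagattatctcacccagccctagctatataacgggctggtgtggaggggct
The match lay 46 bases before the start of Acta1 and 211 before that of Ankrd1. Of the 10 genes with a match, Acta1, Ankrd1 and Flnc rose and the others were not called.

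Of 32 sarcomere and Z-disc genes, Flnc and Myot rose and Tnni3 fell (9.38% called, against 4.85% of all genes tested). Flnc, filamin C of the Z-disc, read 10.17, 9.70 and 9.80 before AAC and 10.96, 10.56 and 10.54 at 4 weeks (0.80 ± 0.17, adjusted p = 0.0242, up to 0.0907 without 4-week replicate 1 or 2 or before-AAC replicate 2 or 3). Myot, myotilin, rose by 0.93 ± 0.23 (adjusted p = 0.0394; 0.0531 after quantile scaling; up to 0.124 without any heart before AAC, 4-week replicate 2 or 3 or Akt-on replicate 3). Tnni3, cardiac troponin I, read 15.17, 15.00 and 14.96, then 14.51, 14.53 and 14.61 (-0.49 ± 0.09, adjusted p = 0.0168), but stood at -0.03 (adjusted p = 0.859) after quantile scaling. The same held for the representative of Atp2a2, the calcium pump SERCA2 of the sarcoplasmic reticulum. It fell from 14.88, 14.94 and 14.73 to 14.42, 14.43 and 14.39 (-0.44 ± 0.09, adjusted p = 0.0243), and stood at -0.05 (adjusted p = 0.81) after quantile scaling. The changes of the 6 probe sets of Atp2a2 ran from -1.14 to -0.07, and 2 of them were called lower. Without single hearts the adjusted p reached 0.0744 for Tnni3 and 0.0962 for Atp2a2. Pln, phospholamban, the inhibitor of SERCA2, stood at -0.35 ± 0.12 (adjusted p = 0.117). Itpr2, the inositol trisphosphate receptor of heart muscle, fell from 9.02, 9.97 and 9.14 to 8.32, 7.54 and 8.34 (-1.31 ± 0.27, adjusted p = 0.0235, up to 0.0849 without 4-week replicate 2 or before-AAC replicate 2 or 3). Dsg2, the desmosomal cadherin, fell by 1.29 ± 0.29 (adjusted p = 0.0287, up to 0.105), although 4-week replicate 3 at 10.19 lay close to the lowest heart before AAC at 10.40.

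In hypertrophic signalling 3 of 53 genes rose and 1 fell (7.55% called, against 4.85% of all genes tested). Agtr1a, the type 1 angiotensin II receptor, read 9.60, 9.49 and 9.67 before AAC and 10.11, 10.68 and 10.41 at 4 weeks (0.82 ± 0.19, adjusted p = 0.0353). Ppp3cb, a catalytic subunit of calcineurin, rose from 9.13, 8.20 and 8.45 to 9.37, 9.84 and 9.46 (adjusted p = 0.0373), and Lifr, the receptor of leukaemia inhibitory factor, by 0.73 ± 0.19 (adjusted p = 0.0459). Hdac7, a class IIa histone deacetylase, fell by 0.58 ± 0.14 (adjusted p = 0.0373). In each of these 4 genes the groups did not overlap, as in 30.8% of all genes tested. In each the call was lost without several hearts (adjusted p up to 0.132 for Agtr1a, 0.133 for Ppp3cb, 0.14 for Lifr and 0.137 for Hdac7). Quantile scaling ended those of Agtr1a and Lifr (adjusted p = 0.0532 and 0.0544). The transgene's own gene, Akt1, was not called by limma in any of its 3 probe sets (-0.42 to 0.56). The lowest of the 3 had an unadjusted limma p under 0.05, as had 4957 of the 21850 probe sets tested.

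Of 64 genes of endothelium and angiogenesis, 6 fell, against 2.25% of all genes tested, and 58 were not called. In 55 of the 64 the change was below 0, against 6968 of 12834 over all genes (median -0.280, -0.323 after quantile scaling and -0.353 with the 3' to 5' ratio as a covariate). In bulk tissue fewer cells of a type and less RNA per cell cannot be told apart, here and for the other cell types. Kdr, the main receptor of vascular endothelial growth factor (VEGF), read 11.97, 11.87 and 12.06 before AAC and 10.71, 11.38 and 10.96 at 4 weeks. The fall of 0.95 ± 0.17 (adjusted p = 0.0138) was lost only without before-AAC replicate 3 (0.0633). Flt1, VEGF receptor 1, read 10.64, 10.69 and 11.00, then 10.04, 10.07 and 10.22 (-0.67 ± 0.14, adjusted p = 0.0229). Nrp2, a VEGF co-receptor, and Notch1, which restrains vessel sprouting, both fell by 0.74 ± 0.15 (adjusted p = 0.0242 and 0.0232). In these 4 genes all 4-week hearts lay below all hearts before AAC, as in 17.8% of all genes tested. Icam2, an adhesion molecule of endothelial cells, fell by 0.65 ± 0.15 (adjusted p = 0.0331), and Angpt1, the ligand that stabilises vessels through the receptor Tie2, by 1.21 ± 0.31 (adjusted p = 0.045). Vegfa, the ligand of Kdr and Flt1, overlapped between the groups (-0.10 ± 0.17, adjusted p = 0.785).

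The other endothelial calls were lost without 1 heart in more cases than that of Kdr. Flt1 lost its call without 4-week replicate 1 or 2 or before-AAC replicate 2 or 3 (adjusted p up to 0.0924). Nrp2, Notch1, Icam2 and Angpt1 lost theirs without any 1 heart before AAC or 4-week replicate 1 or 2 (up to 0.093, 0.0909, 0.118 and 0.149; Angpt1 also without Akt-on replicate 3). The summed signal of 7 endothelial markers was 13818, 13062 and 13557 before AAC and 8956, 10968 and 10233 at 4 weeks, with all 7 changes below 0. Kdr, the 1 of the 7 that was called, alone gave 4004.5, 3738.0 and 4282.1 of it, then 1671.0, 2660.4 and 1985.2. In 4 of the 7 all 4-week hearts lay below all hearts before AAC, against 17.8% of all genes tested. The sum of 7 smooth muscle and pericyte markers was 16852, 18256 and 18573, then 12806, 14005 and 14812. Rgs5, a pericyte gene, alone gave 11669, 10216 and 11174 of it before AAC and 6484, 9831 and 8779 at 4 weeks. None of these 7 markers was called by limma (3 at an unadjusted p under 0.05, against 22.5% of all genes tested). The median log2 deviation over the 7 in each heart overlapped between the groups. Their median change of -0.502 was 0.045 with the 3' to 5' ratio as a covariate. The sum of 7 cardiomyocyte markers went from 184257, 176794 and 165375 to 139316, 139332 and 147228. The groups did not overlap in these 3 sums (exact permutation test, two-sided, p = 0.1, the smallest possible). After quantile scaling the median change of the cardiomyocyte markers turned from -0.292 to 0.069, whereas that of the endothelial markers went from -0.279 to -0.351.

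Of 68 genes of extracellular matrix and fibrosis, 4 fell, and none rose by limma's adjusted p. The unadjusted limma p was under 0.05 in 2 that were higher and 13 that were lower, against 22.5% of all genes tested in either direction. The share called was 5.88%, near the 4.85% of all genes tested. The median of -0.184 ran from -0.332 without 4-week replicate 1 to -0.054 without 4-week replicate 3, and was -0.007 with the 3' to 5' ratio as a covariate. Tgfb1, transforming growth factor β1, read 9.99, 10.23 and 10.18 before AAC and 9.28, 9.51 and 9.27 at 4 weeks. All 4-week hearts lay lower, by 0.78 ± 0.14 (adjusted p = 0.0152, up to 0.0661 without 4-week replicate 1 or before-AAC replicate 2 or 3). The other probe set of Tgfb1 stood at -0.09 and was not called. Hspg2, the basement membrane proteoglycan perlecan, fell from 12.25, 12.12 and 12.27 to 11.67, 11.52 and 10.95 (adjusted p = 0.0285), with both probe sets called lower. Col5a1, a chain of type V collagen, fell by 0.61 ± 0.14 (adjusted p = 0.0342), and Timp2, an inhibitor of matrix metalloproteinases, by 0.51 ± 0.11 (adjusted p = 0.0295). Without single hearts the adjusted p reached 0.0949 for Hspg2, 0.124 for Col5a1 and 0.0963 for Timp2. Of the usual fibrosis markers, Postn, periostin, read 9.36, 10.11 and 9.71, then 11.11, 10.25 and 9.50, so that 4-week replicate 1 was high and the groups overlapped (adjusted p = 0.377). Thbs4, thrombospondin 4, showed the same high heart (7.26, 7.69 and 7.35, then 9.40, 7.93 and 8.30) with all 4-week hearts above (1.11 ± 0.41, adjusted p = 0.135). Col1a1 stood at -0.59 ± 0.31 and Col3a1 at -0.25 ± 0.22 (adjusted p = 0.277 and 0.536). The summed fibroblast markers ran from 28369 to 31177 before AAC and from 21179 to 31633 at 4 weeks, and overlapped.

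Of 42 genes of macrophages and leukocytes 5 fell, against 2.25% of all genes tested. In 35 the change was below 0, against 6968 of 12834 over all genes. The median of -0.308 went to -0.048 with the 3' to 5' ratio as a covariate. H2-Aa, a chain of the class II molecule of antigen-presenting cells, read 10.42, 10.99 and 10.49 before AAC and 9.16, 9.83 and 10.01 at 4 weeks (-0.97 ± 0.23, adjusted p = 0.0367), with 2 of 3 probe sets called lower. Fcgr2b, the inhibitory Fc receptor, fell by 0.88 ± 0.18 (adjusted p = 0.022), Cxcl16, a chemokine of macrophages, by 1.04 ± 0.20 (adjusted p = 0.0172), and Cx3cr1, the fractalkine receptor, by 0.91 ± 0.22 (adjusted p = 0.0387). Ighm, the heavy chain of IgM, fell from 9.01, 8.83 and 8.85 to 8.18, 8.18 and 8.17 (adjusted p = 0.0314). In all 5 genes the groups were separate, as in 30.8% of all genes tested. Each call was lost without several hearts (adjusted p up to 0.128 for H2-Aa, 0.0741 for Fcgr2b, 0.071 for Cxcl16, 0.114 for Cx3cr1 and 0.098 for Ighm). Quantile scaling ended that of Cx3cr1 (0.0697). The summed macrophage markers were 8367, 8526 and 8024 before AAC and 7229, 4987 and 6606 at 4 weeks. Csf1r alone gave 3028, 3637 and 3448 of it, then 2617, 1729 and 2431, while Cd68 overlapped between the groups. None of the 6 tested markers was called by limma, and the median log2 deviation over them in each heart overlapped between the groups. Their median change of -0.328 was -0.12 with the 3' to 5' ratio as a covariate. The summed lymphocyte markers were 1034, 970 and 1049, then 683, 646 and 624, with Cd3e, Cd3g and Cd79b below the filter on signal.

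In the cell cycle list 5 of 36 genes fell and 1 rose (median -0.331, and -0.151 with the 3' to 5' ratio as a covariate). The share called was 16.7%, against 4.85% of all genes tested. Ccnd1, cyclin D1, read 11.41, 11.37 and 11.29 before AAC and 10.03, 10.27 and 10.71 at 4 weeks (-1.02 ± 0.18, adjusted p = 0.014), with 2 of 3 probe sets called lower. Cdk1, the kinase of mitosis, fell from 7.55, 7.93 and 7.72 to 6.26, 6.95 and 5.62 (adjusted p = 0.0276). Bub3, of the spindle checkpoint, fell by 0.93 ± 0.17 (adjusted p = 0.0154), and Cdkn1c, the inhibitor p57, by 0.85 ± 0.18 (adjusted p = 0.0259). The list thus held falls of drivers and of an inhibitor of division alike. Ccng1, cyclin G1, a p53 target, rose from 11.51, 10.63 and 10.76 to 11.67, 12.37 and 12.24 (adjusted p = 0.0453), and with the 3' to 5' ratio as a covariate its change was -0.19. Bcl2l11, the death-promoting protein Bim, was the 1 call among 29 apoptosis regulators (3.45%). It fell from 9.50, 9.76 and 9.74 to 8.25, 8.81 and 8.57 (-1.12 ± 0.20, adjusted p = 0.0152). With a heart left out the adjusted p reached 0.0641 for Ccnd1, 0.0949 for Cdk1, 0.0556 for Bub3, 0.101 for Cdkn1c, 0.15 for Ccng1 and 0.064 for Bcl2l11.

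Of 37 proteasome subunits 4 rose, against 2.59% of all genes tested, although the median of the list was 0.021 (-0.035 after quantile scaling). Of 32 genes of ubiquitin ligases, autophagy and FoxO 2 rose and 1 fell (median 0.153, 9.38% called against 4.85% of all genes tested). Psmb1, a subunit of the core particle, read 10.67, 10.80 and 11.04 before AAC and 11.51, 11.55 and 11.51 at 4 weeks (0.69 ± 0.14, adjusted p = 0.0229). Psma2, also of the core, and Psmc6 and Psmd7, of the regulatory particle, rose by 0.57 ± 0.12, 0.62 ± 0.14 and 0.85 ± 0.20. Outside these lists Uba3, the catalytic subunit of the enzyme that activates NEDD8, rose from 8.85, 8.87 and 8.74 to 10.19, 10.43 and 9.87 (1.35 ± 0.22, adjusted p = 0.0118, 0.0556 without 4-week replicate 2), and all 3 of its probe sets were called higher. Ube2d3, a ubiquitin-conjugating enzyme chosen after its values were seen, rose by 0.91 ± 0.19 (adjusted p = 0.0242), with 2 of 7 probe sets called. Of autophagy genes, Becn1, beclin 1, rose by 0.82 ± 0.16 (adjusted p = 0.0203), with 2 of 5 probe sets called higher and another at -0.81 (adjusted p = 0.247). Atg5 rose by 0.83 ± 0.21 (adjusted p = 0.0431). The same probe set of Atg5 on chip 430B was not called (0.60, adjusted p = 0.17), and another stood at 0.08. Atg7, the enzyme that activates the conjugation in which Atg5 takes part, fell from 8.68, 8.67 and 8.37 to 7.56, 7.71 and 7.44 (adjusted p = 0.0135, 0.0563 without before-AAC replicate 2). The other probe set of Atg7 stood at -0.008 and was not called. Without single hearts the adjusted p reached 0.0832 for Psmb1, 0.0986 for Psma2, 0.107 for Psmc6, 0.117 for Psmd7, 0.0899 for Ube2d3, 0.0769 for Becn1 and 0.137 for Atg5.

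Of 38 antioxidant genes 3 rose and 1 fell (10.5% called, against 4.85% of all genes tested). Cat, catalase, rose from 9.91, 10.23 and 10.06 to 10.96, 10.92 and 10.84 (0.84 ± 0.17, adjusted p = 0.0214), and Glrx, glutaredoxin, by 0.85 ± 0.16 (adjusted p = 0.0166) with both probe sets called. Sod1, the cytosolic superoxide dismutase, fell by 0.60 ± 0.15 (adjusted p = 0.0376; 0.0558 after quantile scaling). Of 43 genes of ribosome biogenesis and translation 2 rose and 1 fell (6.98% called, against 4.85% of all genes tested). The translation factors Eif4e, which binds the mRNA cap, and Eif2s2, the β subunit of eIF2, rose by 0.54 ± 0.13 and 0.53 ± 0.11 (adjusted p = 0.0404 and 0.0235). In Cat, Glrx, Sod1, Eif4e and Eif2s2 the groups did not overlap, as in 30.8% of all genes tested. With a heart left out the adjusted p reached 0.0765 for Cat, 0.0727 for Glrx, 0.14 for Sod1, 0.139 for Eif4e and 0.0923 for Eif2s2.

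**Figure D5:**
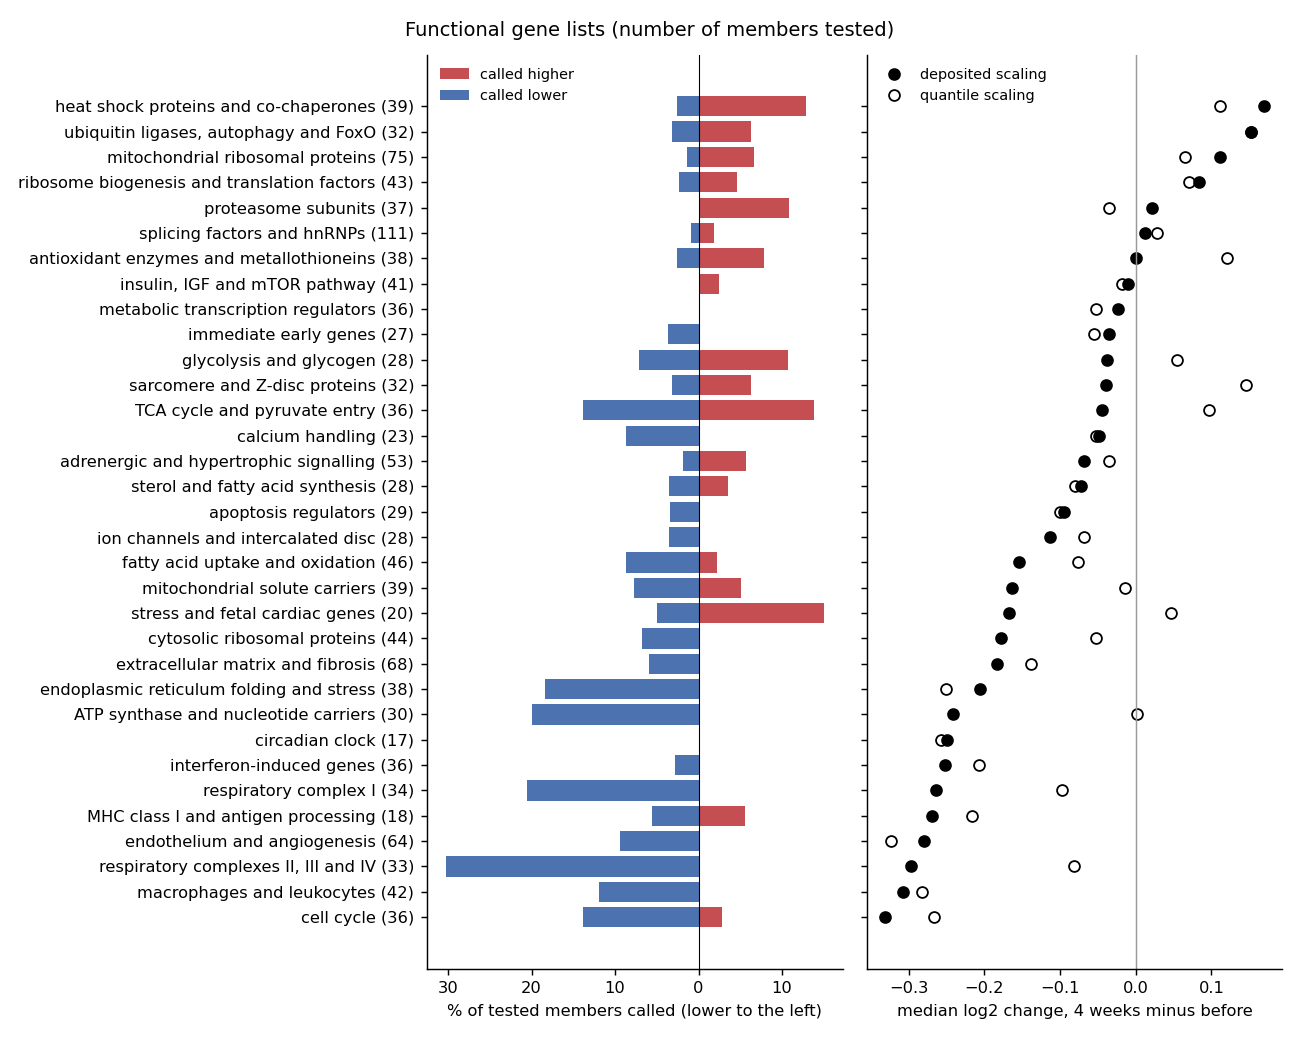
Left, the share of tested members of each functional list with an adjusted p under 0.05, higher to the right and lower to the left, with the number tested in brackets. Over all genes tested 2.59% were higher and 2.25% lower. Right, the median log2 change of all tested members with the deposited scaling (filled) and after quantile scaling (open). With the deposited scaling the heat shock list has the highest median (0.169) and the cell cycle list the lowest (-0.331), and after quantile scaling these are the ubiquitin and autophagy list (0.152) and the endothelium list (-0.323). The 3 respiratory lists lie closer to 0 after quantile scaling.

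Several of the largest rises came from probe sets that were dim before AAC. Unc119, a carrier of lipid-modified proteins, read 6.23, 4.64 and 5.47 before AAC and 8.14, 7.89 and 7.38 at 4 weeks (2.36 ± 0.38, adjusted p = 0.0112). Osbpl5, a lipid transfer protein of the ER, rose from 4.93, 5.56 and 5.88 to 7.76, 7.95 and 7.38 (adjusted p = 0.0118). Nt5e, the ectoenzyme CD73 that makes adenosine, rose from 5.70, 5.33 and 4.71 to 7.18, 7.87 and 7.56 (adjusted p = 0.0152), but its 3 probe sets ranged from -1.23 to 2.29. In all of these the groups were over 1 log2 unit apart. The filter used the mean signal over all hearts, so these probe sets passed it through the hearts in which they were brighter. Csf3r, on the same chip, was brighter than they were before AAC and was left out by the filter. Its signal was 162.7, 141.4 and 123.0 before AAC and 122.1, 102.2 and 156.8 at 4 weeks. Genes that stayed as dim were thus not tested. The gaps and adjusted p given here belong to genes picked in part for a brighter signal after AAC. Without 4-week replicate 2 the adjusted p was 0.0504 for Unc119 and 0.0594 for Osbpl5, and Nt5e lost its call without that heart or before-AAC replicate 3 (up to 0.0747).

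The further probe sets of a gene can be set beside single calls. They read the same RNA samples, with the same difference in RNA quality, so they are no independent support. Of 360 further probe sets of the genes that rose, 267 changed in the same direction and 76 were called higher, while 5 were called lower. Of 290 further probe sets of the genes that fell, 212 changed in the same direction and 18 were called lower, while 4 were called higher. Over all 9016 further probe sets, 4.79% were called higher and 1.18% lower. Over the representatives of all 12834 genes tested, 5864 changes were above 0 and 6968 below 0. Of the 5425 genes with 2 or more probe sets tested, 118 had 2 or more called, 89 all higher, 19 all lower and 10 in both directions. Of the genes above that rose, Psmb1, Tomm70a and Dnaja2 had another probe set at -0.39, -0.37 and -0.35. Gspt1, Eif2s2, Phka1, Tmed7 and Dlat had one at -0.20, -0.12, -0.11, -0.09 and -0.07. Of those that fell, Timp2, Ighm and Col5a1 had one at 0.43, 0.41 and 0.37, and Bub3, Cs and Aldoa at 0.16, 0.16 and 0.15. Fcgr2b, Dsg2, Ccnd1 and Hdac7 had one at 0.09, 0.07, 0.05 and 0.003. None of these was called. Among others, only 1 probe set was called of 4 in Flt1, Nrp2 and Dsg2 and of 5 in Hspa4l and Aldoa.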

How the data were processed

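Per the submitters' processing notes, the authors made the deposited values, linear-scale intensities per probe set, with MAS5. Its version and target are not given in the sources used here. Trimmed means (2% off each end) were 500.19 to 500.22 on the 430A arrays and 122.51 on the 430B arrays, so each chip had been scaled to 1 level. Total RNA was labelled with biotin, per the labels. From these intensities log2(signal) was taken with no pseudocount, and each chip was fitted in R 4.3.3 with limma 3.58.1 (lmFit on 3 group means of all 9 hearts, eBayes with a variance trend, two-sided). Of the 45265 probe sets, 128 controls, 936 with several gene symbols and 9160 with none were left out. The 60% with the highest mean signal per chip were kept, and Benjamini-Hochberg adjustment ran over 21850 probe sets of both chips. The median SE of a change was 0.221, and 3 arrays in each group limit the precision. The labels do not say that samples were separate animals, so p-values measure only the spread between these samples, which may be technical.

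The text names, by rule, genes with 2 or more called probe sets in 1 direction (up to 12 each way), the 10 largest rises and falls without overlap, up to 4 called and 2 uncalled genes of each list, and known genes of load, of which those described are a part. A further 23 genes were named after their values were seen. The comparison, lists and rules were chosen with earlier results of these data known. Alternatives were quantile scaling, a pseudocount of 32, other filters (none, top 40%), variance models, samples, adjustment within each chip, the replicate block, atrial markers as a covariate and each heart left out. The 3' to 5' ratio covariate was chosen after seeing the data. Scripts were tested on simulated data. Promoters are RefSeq's (GRCm38.p6).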

Additional observations from a re-analysis of the deposited data

How the results depend on the processing

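The number of probe sets called, 1160 with 333 genes higher and 289 lower, ran from 126 to 870 when a heart compared was left out and from 1110 to 1620 when an Akt-on heart was. Genes higher ran from 25 to 460 and genes lower from 23 to 411 over these 9 fits. It was 709 (196 higher, 169 lower) with no filter, 628 (145 and 173) with no variance trend, 560 (163 and 139) with 4-week replicates 1 and 3 averaged, and 3 (1 and 0) with the 3' to 5' ratio as a covariate. With only the 6 hearts compared 451 genes were lower, and 463 with adjustment within each chip. Same-numbered deviations of the 2 groups correlated between -0.247 and 0.0269, which gave no sign that replicate numbers pair the samples. With 3 samples in each group, these correlations cannot exclude a pairing. With the replicate block 537 probe sets were called (149 genes higher, 116 lower). Quantile scaling, the pseudocount, the top 40%, robust eBayes and the atrial covariate moved none of these counts by more than 1.5 times.

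Signs turned under quantile scaling in Aldoa (0.046), Actc1 (0.069) and Myh6 (0.18). With the mean of all probe sets they turned in Myh6 (0.50), Canx (-0.055) and H2-K1 (0.60). With the 3' to 5' covariate they turned in Akt1 (-0.64), Ccng1 (-0.19), Col3a1 (0.13), H2-K1 (0.10), Immt (-0.06), Myh7 (0.91), Nppa (3.24) and Ppp3cb (-0.083). With each heart left out Nppa ran from -1.702 to 0.024 (without 4-week replicate 2) and Vegfa from -0.211 to 0.039 (without 4-week replicate 1). The cause was not tested.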
